A study of Mus musculus with 4 samples.

Results

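Forkhead genes encode transcription factors that share a winged-helix DNA-binding domain, named Fox with a letter for the subfamily and a number for the member. Several of them shape blood and lymphatic vessels: FOXC1 and FOXC2 act in arterial specification and in lymphatic valves, FOXF1 in the growth and stability of the vasculature of developing organs, and FOXO1 as a brake on endothelial growth that insulin and PI3K-AKT signalling moves out of the nucleus. Others mark quite different cells, such as FOXP3 in regulatory T cells, FOXA proteins in liver and gut epithelium, FOXJ1 in ciliated cells and FOXN1 in thymic epithelium.

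The forkhead genes described here were all those whose probe name in the scanner files was Fox followed by a letter and a number, 45 of the 30195 genes named on the array, with 65 of its 39429 non-control probes. No measured value entered this rule, but the family was chosen with earlier results of these data known. Foxl2os, an RNA antisense to Foxl2 that is not itself a transcription factor gene, fell under the same rule. RNA came from splenic endothelial cells of Ackr4GFP/wt mice, in which the green fluorescent protein GFP reports the Ackr4 locus on 1 allele. ACKR4 is an atypical chemokine receptor that takes up chemokines such as CCL19 and CCL21. All cells compared therefore carried the reporter allele, and the age and sex of the mice were not given in the sources used here. Living cells without CD45 and with CD31 were sorted into GFP-bearing (ACKR4-positive) and GFP-lacking (ACKR4-negative) cells in 2 independent sorts, each pooling 2 to 3 mice, and each sort gave 1 array per group. The replicates are thus pooled sorts, and with 2 arrays per group every p-value measures only the spread between these pools. RNA was amplified in 1 round from 6 to 20 ng and hybridised to 1-colour Agilent arrays.

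A level below is a probe's log2 processed signal minus the 75th percentile of its array, so that 0 is that percentile. Differences are taken between arrays for the same probe. Levels of different probes are not compared as amounts of RNA, since probes differ in brightness. A probe counted as detected on an array if the scanner software marked more than 50% of its unflagged spots as well above background, and a gene was tested when its probe was detected on both arrays of at least 1 group. A difference is the mean ACKR4-positive level minus the mean ACKR4-negative level, with the standard error of the limma fit (n = 2 arrays per group). A gene was called at a Benjamini-Hochberg adjusted p under 0.05 over all 17362 tested genes.

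Between 54.94% and 58.27% of probes were detected per array, and arrays of a group correlated at 0.977 to 0.982 over probes, against 0.956 to 0.971 between groups. Ackr4 itself had levels of -7.53 and -7.50 on the ACKR4-negative arrays, where it was not well above background, and -0.21 and 2.55 on the ACKR4-positive arrays, a difference of at least 6.75 (adjusted p = 0.0181, limma). All 14 general endothelial markers were detected on all 4 arrays, and 3 of them, Emcn, Esam and Kdr, were called lower in ACKR4-positive cells; without ACKR4-negative replicate 1 or 2 none was, and without ACKR4-positive replicate 1 or 2 only 1 was. Over all tested genes, 3.71% were called lower. The ACKR4-negative arrays also carried markers of platelets and of mural cells, the smooth muscle cells and pericytes that wrap vessels. The values of these markers are given below. The spike-in RNA probes had a median signal of 2749 to 3489 on 3 arrays and of 837.4 on replicate 1 of the ACKR4-negative cells. In such bulk samples, fewer cells of a type and less RNA per cell cannot be told apart.

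Of the 45 forkhead genes, 24 were tested, 22 of them detected on all 4 arrays and 2, Foxo6 and Foxd4, on 3. Of the other 21, Foxo4 was detected on ACKR4-positive replicate 1 only, and 20 on no array. Foxf1 and Foxo6, 2 of the 24 tested genes, were called, both lower in ACKR4-positive cells, where 5.62% of all tested genes were called and 3.71% were called lower. No forkhead gene was called higher, as 1.91% of all genes were. Of the 24, 6 had an unadjusted limma p under 0.05, as had 2823 of all 17362 tested genes. Leaving out any of the 4 arrays left 1 call, Foxf1. Sorts paired by their replicate number shared part of their deviation from the group means, and a limma fit with the sort as a block called 4 forkhead genes, adding Foxp4 as lower and Foxi2 as higher. That fit called 15.3% of all genes, 6.75% higher and 8.55% lower. The median difference of the tested forkhead genes was 0.08, against 0.04 over all tested genes.

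The groups did not overlap in 11 of the 24. Both ACKR4-positive arrays lay above both ACKR4-negative arrays for Foxh1, Foxj2, Foxp1 and Foxi2, as they did for 23.3% of all tested genes. They lay below for Foxf1, Foxo6, Foxc2, Foxp4, Foxo1, Foxd2 and Foxd4, against 21.6% of all tested genes. In 18 of the 24 the difference had the same sign in both sorts, and in 6 the sorts went opposite ways. The share with the same sign was not counted over all tested genes.

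**Figure D1:**
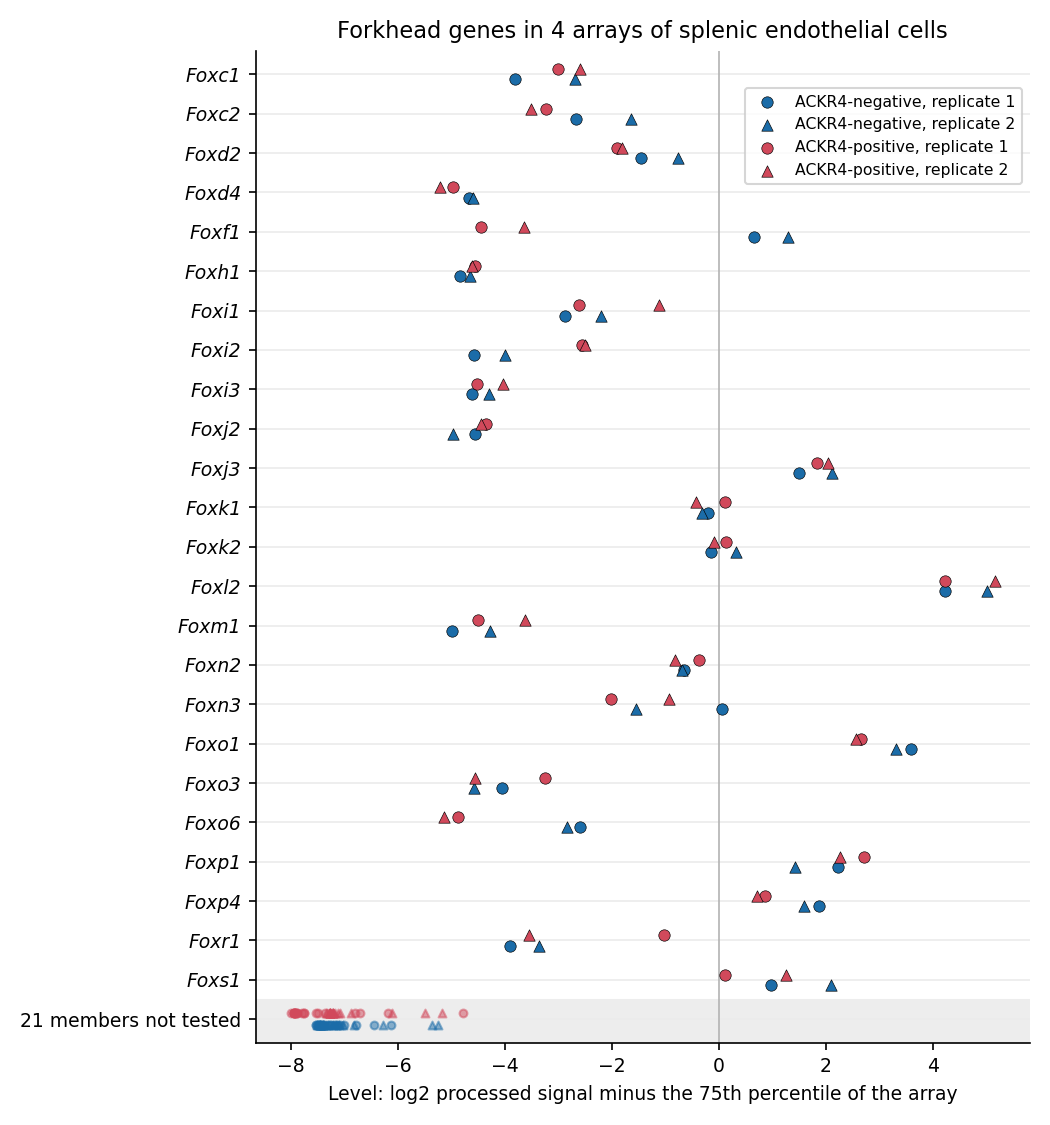
Level of each tested forkhead gene on the 4 arrays, as log2 processed signal minus the array's 75th percentile, with ACKR4-negative arrays in blue and ACKR4-positive arrays in red; circles are replicate 1 and triangles replicate 2. Foxf1 shows the widest gap between the groups, and the grey band holds the 21 untested genes, at -8.00 to -4.79.

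Foxf1 differed most among the tested forkhead genes. Its level was 0.66 and 1.29 on the ACKR4-negative arrays and -4.46 and -3.66 on the ACKR4-positive arrays. Both ACKR4-positive arrays lay far below both ACKR4-negative arrays, and all 4 were above background. Foxf1 fell by 5.03 ± 0.43 on the log2 scale, 32.8-fold lower (adjusted p = 0.0125, limma), and the sorts gave -5.12 and -4.95. Under 15 other settings the call stood, with differences of -5.44 to -3.82.

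A second Foxf1 probe read the same transcript upstream, at chr8:123610681-123610740 of the mouse build mm9, against chr8:123611944-123612003 for the probe above. Its sequence is shown because it is a second probe for the largest difference in the family, read from the same RNA on the same arrays. It has no base in common with the first probe's position.
Foxf1 second probe: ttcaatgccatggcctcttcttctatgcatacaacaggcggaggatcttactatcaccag
This probe read -3.67 and -4.12 on the ACKR4-negative arrays. On the ACKR4-positive arrays it read -7.91 and -7.24, not well above background on either, so that its difference is at least 1.78 on the log2 scale. Both probes read lower on both ACKR4-positive arrays, but the second passed the detection filter only through the ACKR4-negative arrays.

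Foxf1 has close forkhead neighbours on mouse chromosome 8, Foxc2 and Foxl1. The Foxc2 probe lies at chr8:123642693-123642752 (mm9). FOXC2 is the forkhead factor best known for lymphatic valves. Foxc2 read -2.67 and -1.65 on the ACKR4-negative arrays and -3.23 and -3.51 on the ACKR4-positive arrays. The groups did not overlap, and the difference of -1.21 ± 0.44 was not called (adjusted p = 0.286, limma). Its sorts differed in size, at -0.56 and -1.86. Foxl1, a factor of mesenchymal cells beneath gut epithelium, was detected on no array. A similar trio sits on chromosome 13, where Foxq1 and Foxf2 were detected on no array and Foxc1 was detected on all 4.

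Foxc1, the partner of Foxc2 in vessel development, read -3.82 and -2.70 on the ACKR4-negative arrays and -3.01 and -2.60 on the ACKR4-positive arrays. These values interleaved, with a difference of 0.45 ± 0.47 (adjusted p = 0.779, limma). Foxs1, a gene of pericytes and of neural crest derivatives, read 0.96 and 2.10 on the ACKR4-negative arrays and 0.11 and 1.25 on the ACKR4-positive arrays. The second sort was higher in both groups and the groups overlapped. Within a sort the ACKR4-positive array was lower by nearly the same amount, at -0.85 and -0.84. The difference of -0.85 ± 0.59 was not called (adjusted p = 0.634, and 0.0582 with the sort as a block, limma).

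Mural cell markers read lower in ACKR4-positive cells. Of 11 tested markers, 4 were called lower in ACKR4-positive cells (Kcnj8, Abcc9, Myh11 and Cspg4) and none higher, where 3.71% of all genes were called lower. Which of them were called changed with the array left out. The median over the 11 was -3.72, or -3.37 with the 2 markers that have only a bound set at it. Leaving out each array in turn gave medians of -4.415 to -3.235. Linear levels of the 11 tested mural markers were summed in units of each array's 75th percentile. The sums were 87.1 and 124 in ACKR4-negative cells and 18.4 and 11.1 in ACKR4-positive cells. No mural marker was below background on all 4 arrays, and Rgs5 was detected on 1. Markers of fibroblastic reticular cells, the stromal cells of the spleen, were called by limma in neither direction among 10 tested. An unadjusted limma p under 0.05 was found for 5 of the 10, as for 2823 of all 17362 tested genes. The sums of the 10 were 17.2 and 21.2 against 7.92 and 9.18. With the sort as a block, 10 of the 11 mural markers were called lower, and 5 reticular cell markers were called lower and 1 higher. That fit called 8.55% of all genes lower and 6.75% higher. The part of mural or stromal cells in the Foxf1, Foxc2 and Foxs1 values was not tested.

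Platelet and arterial markers moved the same way. Of 10 tested megakaryocyte and platelet markers 9 were called lower, against 3.71% of all genes, with summed levels of 90.8 and 212 in ACKR4-negative cells and 1.20 and 2.55 in ACKR4-positive cells. Without ACKR4-negative replicate 1 or 2 the count was 6 or 5. Of 12 arterial endothelial markers 10 were called lower, against the same 3.71%, with sums of 95.1 and 115 against 7.40 and 13.6. Under the stricter filter on dim probes 2 of 6 mural, 3 of 5 platelet and 2 of 5 arterial markers that could be tested were called lower. Over all genes it was 276 of 15705. Of 7 tested erythroid markers 3, Epor, Gata1 and Car2, were called lower, against the same 3.71%. Gata1 read 0.59 and 0.92 on the ACKR4-negative arrays and was not well above background on the ACKR4-positive arrays. The 7 summed to 384 on ACKR4-negative replicate 1 and to 16.5 to 59.5 on the other arrays. Hba-a1, at 8.53 on that replicate, made up most of each sum. Without ACKR4-negative replicate 1 the Foxf1 difference was -5.35. That fit keeps ACKR4-negative replicate 2, where Gata1 read 0.92, Epor -1.03 and Car2 1.06, so it does not remove erythroid markers. Pecam1, the gene of the CD31 gate, differed by -0.15 ± 0.41 and was not called. The part of these markers in the forkhead values was not tested.

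**Figure D2:**
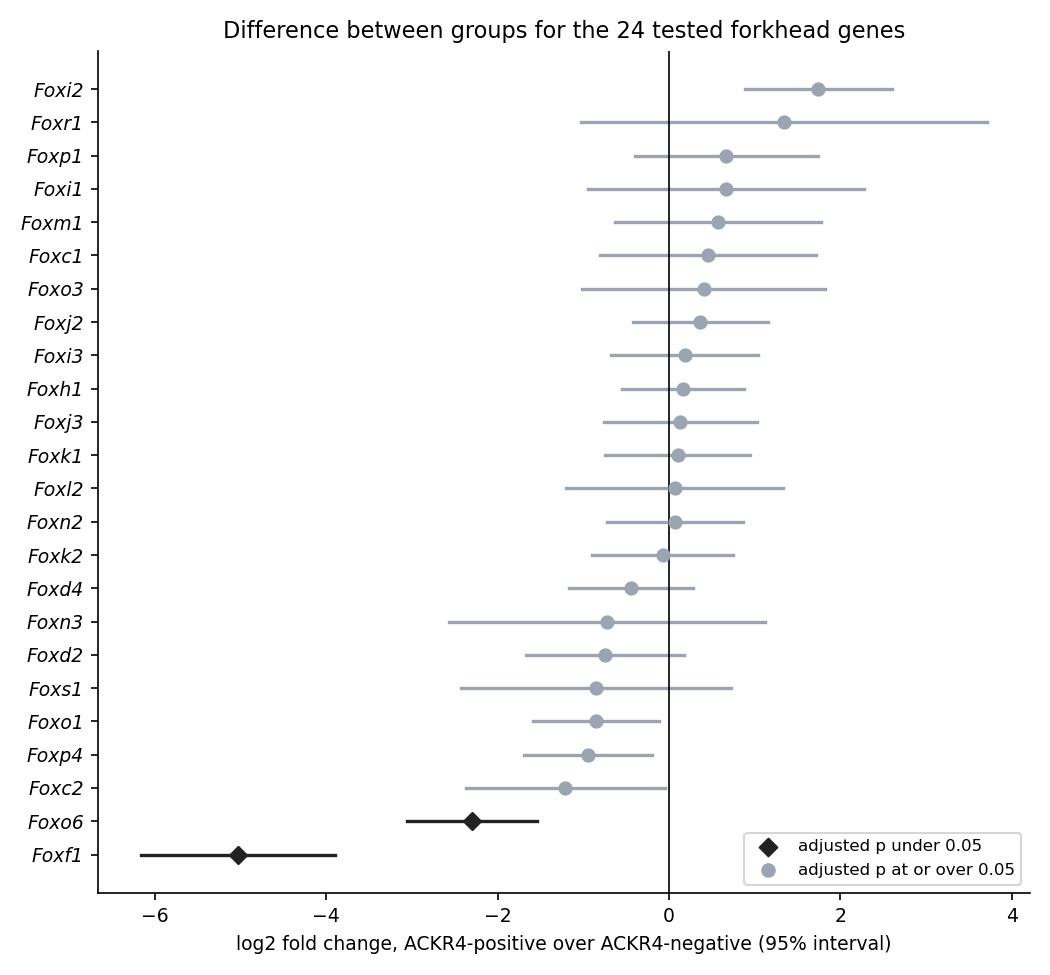
Difference between the groups for the 24 tested forkhead genes, on the log2 scale with 95% intervals of the limma fit, ordered by size; black diamonds have an adjusted p under 0.05 and grey circles do not. Foxf1 at -5.03 and Foxo6 at -2.30 are the called genes, and Foxi2 at 1.74 is the largest difference above 0.

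The FOXO subfamily links growth factor signalling to quiescence, metabolism and survival. Foxo1, its main member in endothelium, read 3.59 and 3.32 on the ACKR4-negative arrays and 2.65 and 2.55 on the ACKR4-positive arrays. The groups did not overlap. The difference of -0.85 ± 0.28, 1.80-fold lower, was not called (adjusted p = 0.236, and 0.0612 with the sort as a block, limma). A second Foxo1 probe read 2.12 and 2.21 against 1.21 and 1.02, a difference of -1.05. Both probes were detected on all 4 arrays and both were lower in each sort.

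Foxo6, a FOXO member best known in brain, read -2.59 and -2.83 on the ACKR4-negative arrays and -4.88 and -5.14 on the ACKR4-positive arrays. All values were low, and on ACKR4-positive replicate 2 the probe was not well above background. The difference was -2.30 ± 0.29 (adjusted p = 0.0239, limma), with sorts at -2.29 and -2.31. The call did not survive the loss of an array: leaving out any of the 4 gave an adjusted p of 0.0658 to 0.139, and normexp background correction shrank the difference to -1.02 (adjusted p = 0.146). The second Foxo6 probe was detected on no array and read -7.45 to -6.82 throughout, so it gives no second reading.

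Foxo3 was low and its probes disagreed. The probe that stands for it read -4.05 and -4.59 on the ACKR4-negative arrays and -3.26 and -4.56 on the ACKR4-positive arrays, a difference of 0.41 ± 0.54 (adjusted p = 0.829, limma). Its other probe, further along chromosome 10 and placed on the gene by its symbol, differed by -0.79. The direction for Foxo3 thus depends on the probe, and it reads -0.19 with the probes averaged. Foxo4 read -7.12 and -5.25 against -4.79 and -5.18 and was above background only at -4.79.

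Foxp1, Foxp2, Foxp3 and Foxp4 encode long forkhead proteins that pair with each other. Foxp4 read 1.87 and 1.58 on the ACKR4-negative arrays and 0.86 and 0.71 on the ACKR4-positive arrays. The groups did not overlap. The difference of -0.94 ± 0.28, 1.92-fold lower, was not called (adjusted p = 0.193, limma) but was with the sort as a block (adjusted p = 0.0443). Leaving out an array gave an adjusted p of 0.382 to 0.810. A second probe that covers nearly the same bases read 1.01 and 0.86 against 0.00 and 0.01, a difference of -0.93. The remaining Foxp4 probe, detected on 2 arrays, 1 of each group, read -5.75 to -4.89 and was not tested.

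Foxp1, the partner most widely made in blood and endothelial cells, went the other way. It read 2.23 and 1.41 on the ACKR4-negative arrays and 2.71 and 2.26 on the ACKR4-positive arrays. The groups lay just apart, and the difference of 0.67 ± 0.40 was not called (adjusted p = 0.564, limma). Foxp1 had 5 probes. Of the 4 tested, 3 were higher in ACKR4-positive cells in both sorts, at 0.67, 1.01 and 0.49, and 1, with a mean level of -3.86, was lower in both at -0.42. Foxp2 was detected on no array.

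Foxp3, the factor that defines regulatory T cells, was detected on no array, with readings of -6.13 and -5.36 on the ACKR4-negative and of -6.19 and -5.50 on the ACKR4-positive arrays. Among 11 T cell markers, Cd4, Cd3e, Cd247 and Lck were detected on all 4 arrays, with Cd4 at 1.13 to 1.52, Cd3d and Ikzf2 on 2 and Cd3g on 1. Cd8a, Ctla4, Il2ra and Tnfrsf18 were detected on none. The summed level of the 4 tested T cell markers was 4.75 and 5.11 against 4.15 and 4.30. Among these 4, 1 was called lower, Lck, where 3.71% of all genes were. That call was lost when any array was left out and under both other filters on dim probes.

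**Figure D3:**
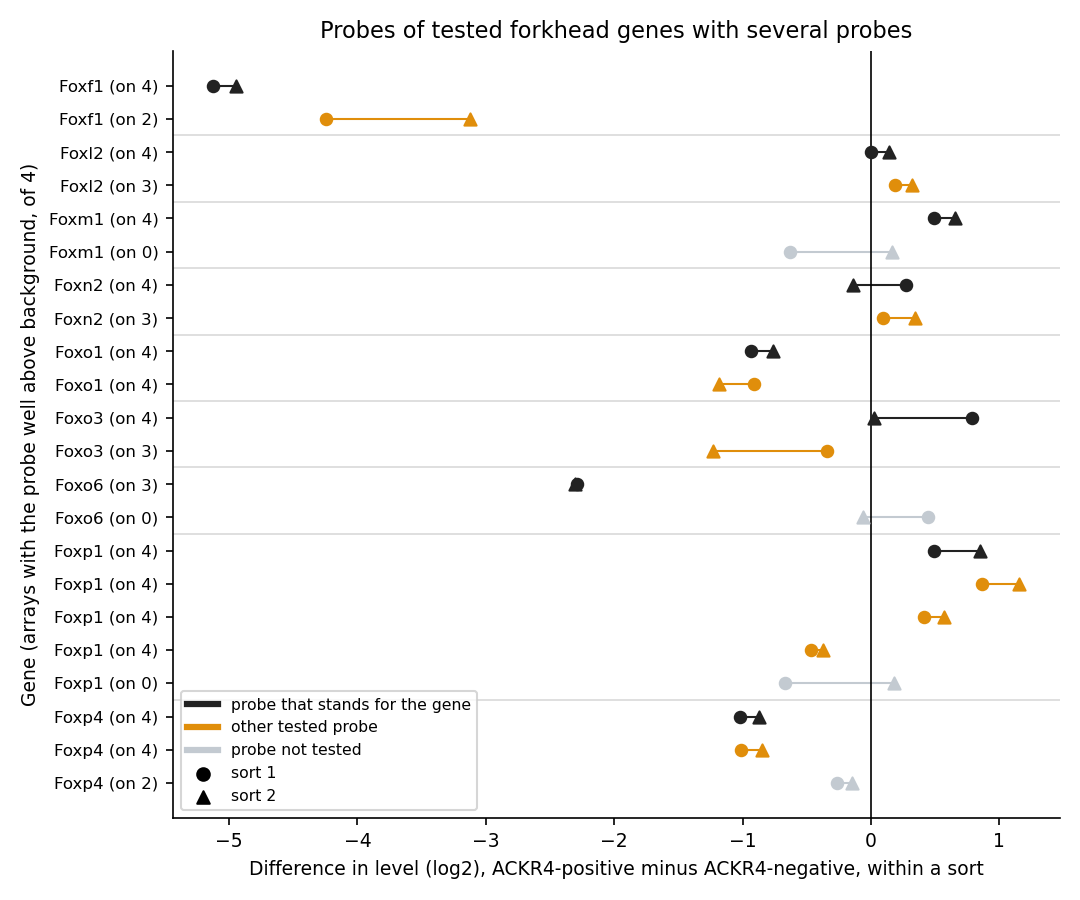
Difference within each sort (circle sort 1, triangle sort 2) for every probe of the tested forkhead genes with several probes, as ACKR4-positive minus ACKR4-negative level on the log2 scale; black is the probe that stands for the gene, orange another tested probe and grey an untested one. Probes of Foxf1, Foxo1 and the tested ones of Foxp4 lie on the same side of 0, while those of Foxo3 and Foxp1 fall on both.

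Foxi2 was the largest difference in favour of ACKR4-positive cells. FOXI factors are known from ear, kidney and other epithelia. Foxi2 read -4.58 and -3.995 on the ACKR4-negative arrays and -2.57 and -2.52 on the ACKR4-positive arrays, above background on all 4. The groups did not overlap, and the sorts gave 2.01 and 1.48. The difference of 1.74 ± 0.32, 3.35-fold higher, was just short of a call (adjusted p = 0.0620, limma). It was called with the sort as a block (0.00965), with median centring (0.0476) and with quantile normalization (0.0483). With normexp background correction it was 0.84 (adjusted p = 0.237). Foxi1 and Foxi3 read low, with differences of 0.67 ± 0.61 and 0.19 ± 0.32 that were not called (adjusted p = 0.743 and 0.875, limma).

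RefSeq's table of promoters (GRCm38.p6, from 250 bases before to 50 after each start) held 34 promoters of 29 of the 45 forkhead genes. Foxp4 and Foxi2, the genes that the fit with the sort as a block added, and Foxo1 are shown here. Their CpG counts differ, and Foxi2 read higher in ACKR4-positive cells where Foxp4 and Foxo1 read lower. The 250 bases before the start are given 5′ to 3′ on the gene's strand, and capitals mark the GC box GGGCGG or its reverse complement CCGCCC, the core of the motif bound by SP1-like factors. They lie at chr17:47924633-47924882 (minus strand), chr7:135410117-135410366 (plus strand) and chr3:52268087-52268336 (plus strand) of GRCm38.p6.
Foxp4 promoter: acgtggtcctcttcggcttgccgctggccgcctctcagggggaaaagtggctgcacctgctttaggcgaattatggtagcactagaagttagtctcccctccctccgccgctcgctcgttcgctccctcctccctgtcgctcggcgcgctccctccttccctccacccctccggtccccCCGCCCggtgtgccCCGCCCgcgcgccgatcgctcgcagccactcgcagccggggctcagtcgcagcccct
Foxi2 promoter: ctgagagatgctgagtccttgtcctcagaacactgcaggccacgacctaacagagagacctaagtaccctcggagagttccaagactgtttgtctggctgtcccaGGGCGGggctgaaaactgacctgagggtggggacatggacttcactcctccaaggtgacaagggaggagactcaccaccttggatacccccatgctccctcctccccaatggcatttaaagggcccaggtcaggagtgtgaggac
Foxo1 promoter: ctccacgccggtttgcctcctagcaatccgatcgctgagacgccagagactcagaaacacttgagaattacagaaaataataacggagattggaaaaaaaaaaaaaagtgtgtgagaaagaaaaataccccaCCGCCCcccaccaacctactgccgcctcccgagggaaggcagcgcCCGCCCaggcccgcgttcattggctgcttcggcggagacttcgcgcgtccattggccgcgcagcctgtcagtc
The Foxp4 stretch holds 27 CpG dinucleotides and 2 GC boxes, that of Foxo1 20 and 2, and that of Foxi2 3 and 1. Over these 250 bases before the start, GGGCGG on either strand was in 24 of the 34 forkhead promoters, against 32.7% of all 32851. The median CpG count was 16.5 against 6 and the median GC content 62.4% against 52.4%. The forkhead motif GTAAACA, searched on both strands, was in 1 of the 34 (Foxa1) against 3.2% of all. Its variant ATAAACA, which shares TAAACA with it, was in 3, those of Foxp1 and Foxp3, against 4.2%. TATAAA was in 3, against 12.4%. These are counts of letters in a window and say nothing of binding.

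Foxl2, a factor known from the ovary and the pituitary, had 2 probes. The probe that stands for it read 4.23 and 5.02 on the ACKR4-negative arrays and 4.23 and 5.15 on the ACKR4-positive arrays. The second sort was higher in both groups, and the difference was 0.07 ± 0.48 (adjusted p = 0.974, limma). A second probe of the same transcript read -5.43 and -4.92 against -5.24 and -4.60, near the limit of detection and above background on 3 arrays. The antisense Foxl2os was detected on no array. The probes sit next to each other and share 12 bases, in capitals, so that their sequences are shown to compare them. The upstream probe is at chr9:98856846-98856905 and the downstream probe, which stands for the gene, at chr9:98856894-98856950 (mm9).
Foxl2 upstream probe: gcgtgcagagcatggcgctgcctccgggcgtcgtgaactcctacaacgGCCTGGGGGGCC
Foxl2 downstream probe: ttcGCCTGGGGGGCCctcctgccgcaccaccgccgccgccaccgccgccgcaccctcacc
The downstream probe holds 81.7% G and C and 7 copies of CCG, against 71.7% and 1 copy in the upstream probe. Of the 39429 probes on the array, 9 had at least that GC content, itself included. Among these 9, 4 had a mean level over 4, against 5.43% of all probes. The part of base composition in the high Foxl2 reading was not tested, and the level of Foxl2 is therefore given for this probe only.

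Several broadly expressed members read near or above the 75th percentile on all arrays without a called difference. Foxj3 read 1.495 to 2.11, with a difference of 0.13 ± 0.34 (adjusted p = 0.924, limma). Foxk1 and Foxk2, the winged-helix factors of glycolysis and autophagy control, read -0.44 to 0.12 and -0.15 to 0.32, and differed by 0.10 ± 0.32 and -0.07 ± 0.31. Foxn2 read -0.82 to -0.38 and differed by 0.07 ± 0.30. Their 95% intervals all lay within -0.90 to 1.03. Foxn3, a repressor tied to cell cycle checkpoints, scattered more. It read 0.05 and -1.56 on the ACKR4-negative arrays and -2.02 and -0.93 on the ACKR4-positive arrays, with the sorts at -2.07 and 0.62 and a difference of -0.72 ± 0.69 (adjusted p = 0.758, limma).

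The remaining tested members read low. Foxd2 read -1.46 and -0.77 against -1.92 and -1.81, a difference of -0.75 ± 0.35 (adjusted p = 0.427, limma), and its groups did not overlap. Foxd4 differed by -0.45 ± 0.27, Foxh1 by 0.17 ± 0.27 and Foxj2 by 0.37 ± 0.30, each without overlap and without a call. Foxr1 rested on 1 array. It read -3.91 and -3.37 on the ACKR4-negative arrays and -1.03 and -3.55 on the ACKR4-positive arrays, a difference of 1.35 ± 0.89 (adjusted p = 0.610, limma) that was 0.09 without ACKR4-positive replicate 1. Foxm1, the factor that drives genes of mitosis, read -4.99 and -4.29 against -4.51 and -3.63, a difference of 0.57 ± 0.45 (adjusted p = 0.693, limma), and its groups overlapped.

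The members detected on no array included Foxa1, Foxa2, Foxa3, Foxb1, Foxb2, Foxd1, Foxd3, Foxe1, Foxe3, Foxf2, Foxj1, Foxl1, Foxl2os, Foxn1, Foxn4, Foxp2, Foxp3, Foxq1 and Foxr2. They include the classic markers of liver, thymic and ciliated epithelium. Foxq1, a factor of epithelial cells that has also been described in endothelium, and Foxf2, the paralogue of Foxf1 in brain pericytes, were among them.

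Genes that act with forkhead factors were described from 4 lists of textbook regulators and targets. These lists were chosen with earlier results of these data known, so their counts are descriptive. Among 24 tested regulators of FOXO proteins (insulin and IGF receptors, PI3K and AKT subunits, SGK and acetylation enzymes) 1 was called, Igf1r, where 5.62% of all genes were called. This receptor of insulin-like growth factors read 2.28 and 1.54 on the ACKR4-negative arrays and -1.89 and -2.29 on the ACKR4-positive arrays, a difference of -3.998 ± 0.38 (adjusted p = 0.0143, limma). The median of the list was -0.15, against 0.04 over all genes. The insulin receptor gene Insr and the kinase gene Sgk1 differed by -0.94 and -0.67 and were not called. With the sort as a block Insr was called lower as well, where that fit called 8.55% of all genes lower.

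Of 27 tested FOXO targets 2 were called higher and 1 lower, with a median of 0.05, where 1.91% of all genes were called higher and 3.71% lower. Bcl6, a transcriptional repressor, read -0.52 and -0.44 against 2.38 and 1.64 and rose by 2.49 ± 0.36 (adjusted p = 0.0338, limma). Trim63, a ubiquitin ligase of muscle wasting, rose by 1.86 ± 0.28 (adjusted p = 0.0389, limma). Angpt2, the TIE2 ligand that loosens vessels, read 1.33 and 0.26 on the ACKR4-negative arrays. It was not well above background on the ACKR4-positive arrays, which puts its fall at no less than 6.46 on the log2 scale (adjusted p = 0.00776, limma). The called targets thus stood on both sides of 0. With the sort as a block 7 were called, 3 higher and 4 lower, where that fit called 6.75% of all genes higher and 8.55% lower. Without ACKR4-negative replicate 1 or 2 only 1 was, lower. Without ACKR4-positive replicate 1 there were 2 called, both lower, and without replicate 2 there were 1 higher and 1 lower. Trim63 lost its call in each of these 4 fits, and Bcl6 in all but the last.

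None of 12 tested FOXM1 targets was called by limma at the adjusted threshold. An unadjusted limma p under 0.05 was found for 3, as for 2823 of all 17362 tested genes. The median of the 12 was -1.12. Mki67 differed by -2.53, Aurka by -1.37, Plk1 by -1.18 and Kif20a by -1.06. Aurka was called lower with the sort as a block, where that fit called 8.55% of all genes lower. Aspm, Aurkb, Cdc25c and Cenpf, also genes of dividing cells, were detected on no array.

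Of 15 targets of FOXC and FOXF factors in endothelium, 7 were called lower and none higher, with a median of -1.71, where 3.71% of all genes were called lower and 1.91% higher. Under the stricter filter on dim probes 1 of 11 was called lower, Notch4, where 276 of all 15705 genes were. Dll4, the arterial Notch ligand, fell by at least 7.64 (adjusted p = 0.00638, limma), and Hey2, a Notch effector, by at least 3.62. Notch4 fell by 5.66 ± 0.44 and Cxcr4, the receptor of CXCL12, by at least 3.90. Kdr, which encodes VEGF receptor 2, read 6.74 and 5.99 on the ACKR4-negative arrays and 4.06 and 3.26 on the ACKR4-positive arrays, a fall of 2.71 ± 0.44 on the log2 scale (adjusted p = 0.0459, limma). Pdgfb, whose product recruits pericytes, fell by 2.11 ± 0.36 (adjusted p = 0.0495, limma). Neither call was stable. Kdr was not called when any array was left out, nor under quantile normalization, median centring, both other filters or the mean of probes. Pdgfb was called without ACKR4-positive replicate 2 but not without any of the other arrays, nor under both other filters or the mean of probes. Dll4 and Hey2 also stand in the arterial marker list, Kdr among the general endothelial markers and Angpt2 in the list of FOXO targets. Tek, Cdh5 and Tie1 are likewise general endothelial markers and S1pr1 is also a FOXO target, so these counts are not separate. Cxcr4, Kdr and Pdgfb were named after their values were seen. With the sort as a block 10 were called lower and 1, Tek, higher, against 8.55% and 6.75% of all genes, and without ACKR4-negative replicate 2 there were 4 called lower. Cdh5, Tie1, Flt4 and Prox1 were not called.

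**Figure D4:**
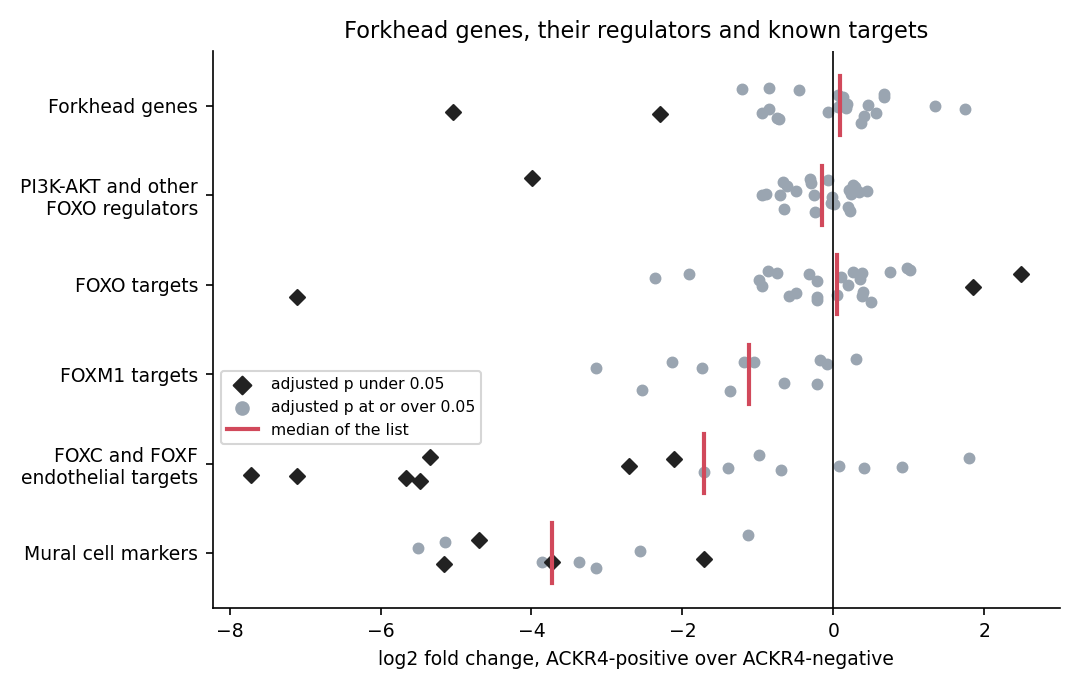
Difference of each tested gene in the forkhead family, the 4 lists of its regulators and targets, and the mural cell markers, on the log2 scale; black diamonds have an adjusted p under 0.05, red bars are list medians, and vertical scatter within a row has no meaning. The forkhead median lies at 0.08, and the FOXC and FOXF targets and mural markers lie at -1.71 and -3.72.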

How the data were processed

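Per the file headers, the authors used Agilent Feature Extraction 10.7.3.1, and the deposited signal of each spot is an intensity from which background was subtracted, with spatial detrending. The deposited table of processed intensities has each array's 75th percentile at about 1500 and a lowest value of 15. It served as an alternative. Here, spots marked as outliers (1.91% to 1.96%) were dropped, log2 intensities were averaged over the 4 spots per probe, and the array's 75th percentile was subtracted. The brightest tested probe stood for a gene. Names came from RefSeq by accession (58 forkhead probes) or symbol (7). Probe positions are those of the files, on mm9, and their exon or UTR placement was not analysed here.

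Groups were compared by limma 3.58.1 (lmFit and eBayes, 2-sided, no block) in R 4.3.3, which was also tested on simulated data. Sequences and figures used Python 3.11.15. The array titles give both arrays of a sort the same mouse number, so replicate numbers pair the arrays, and deviations from the group means correlated at 0.601 over detected probes. All 4 arrays were on 1 slide and in 1 scan. Their number limits the precision. The forkhead genes and the gene lists were chosen with earlier results of these data known. Forkhead genes detected on both arrays of a group were named with values, and up to 4 list members with the smallest p. Some genes under these rules are not reported here. Alternatives covered background correction, scaling, filters, the deposited table, probe choice, outlier spots, a trended prior, the replicate block and each array left out.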

Additional observations from a re-analysis of the deposited data

How the results depend on the processing

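Main counts of called genes were 976 over all genes, 2 among the forkhead genes and 43 among the listed genes. With the replicate block they were 2656, 4 and 74. The stricter filter on dim probes gave 441, 1 and 16, and normexp background correction left 1 forkhead call. Leaving out each array in turn gave 387 to 892 calls over all genes, 1 among forkhead genes each time, and 29 to 41 among listed genes. The block changed the forkhead calls of Foxp4 and Foxi2 only. Foxf1 was called under all 15 alternatives and Foxo6 under 9 of 14, since the stricter filter removed Foxo6 and Foxd4. Directions that turned belonged to genes without a call. Foxo3 was -0.19 with the mean of probes. Leaving out an array gave differences of -0.11 to 1.02 for Foxc1, -0.089 to 1.42 for Foxi1, -0.0595 to 0.43 for Foxi3, -0.18 to 0.44 for Foxj3, -0.18 to 0.38 for Foxk1, -0.31 to 0.16 for Foxk2 (0.04 without ACKR4-positive replicate 2), -0.39 to 0.53 for Foxl2 (-0.32 without ACKR4-negative replicate 1), -0.16 to 0.29 for Foxn2, -1.52 to 0.0787 for Foxn3 and -0.24 to 1.06 for Foxo3. The causes were not tested. The slide was not run as a block, because all arrays shared 1 slide. With 2 arrays per group, 13 of the 24 tested genes had a 95% interval narrower than 2 on the log2 scale, and signals near background, such as those of Foxo6 and Foxi2, moved with the background correction.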
